A study of Mus musculus with 8 samples.

Results

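The linker histone gene *H1f0* and the 2 genes for the replacement histone H3.3, *H3f3a* and *H3f3b*, are described here in E15.5 fetal mouse brain, as 3 of the 54752 genes listed in each count table. Their rows were found by gene identifier and symbol. They were chosen by their counts in stressed against control brains, where *H1f0* and *H3f3b* had the smallest p-values of all genes, so that difference is given as a description, without a test. The brains were whole brains of wild type C57BL/6 fetuses (C57BL/6Slac in the study's methods) and took in the forebrain, midbrain and hindbrain, each brain being sequenced as its own library of poly(A) RNA. In the stress group, 2 males (M28 and M29) and 2 females (F34 and F35) were carried by a dam exposed to chronic unpredictable mild stress (CUMS), a daily change of mild stressors such as tube restraint, fox smell, wet bedding and light overnight, given from E5.5 to E14.5. In the control group, 2 males (M30 and M31) and 2 females (F36 and F37) were carried by a dam kept in its home cage. The 4 brains of each group came from a single litter. Differences between litters and differences between conditions therefore cannot be told apart.

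Nucleosomes wind DNA around a core of H2A, H2B, H3 and H4, and a linker histone binds where the DNA enters and leaves the core. Most histone genes are transcribed in S phase into mRNAs without a poly(A) tail, whereas *H1f0* and the H3.3 genes are transcribed outside S phase as well, into polyadenylated mRNAs. *H1f0* encodes H1.0, a linker histone known for its accumulation in cells that leave the cell cycle and differentiate, and H3.3 is deposited at active genes and at repeats without DNA replication and becomes the main H3 of neurons after they stop dividing.

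*H3f3a* and *H3f3b* encode the same protein through different codons, and the beginnings of their coding sequences are shown because this difference lets reads of the paralogs be told apart. Over the 411 coding bases, stop codon included, 95 bases and 83 of 137 codons differed between them, and 0 of these codons changed the residue. The first 120 coding bases, read from the GENCODE M21 transcripts (GRCm38), are given 5′ to 3′ with capitals at each base that differs from *H3f3a*. The processed copies *H3f3c* and *H3f3a-ps2* follow the paralogs, because their sequence is close to *H3f3a* and not to *H3f3b*.
H3f3a: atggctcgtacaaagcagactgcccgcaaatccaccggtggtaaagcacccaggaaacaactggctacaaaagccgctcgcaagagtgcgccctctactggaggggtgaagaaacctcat
H3f3b: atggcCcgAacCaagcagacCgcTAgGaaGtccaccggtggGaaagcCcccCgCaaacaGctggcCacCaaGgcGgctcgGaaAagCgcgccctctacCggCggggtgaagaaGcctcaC
H3f3c: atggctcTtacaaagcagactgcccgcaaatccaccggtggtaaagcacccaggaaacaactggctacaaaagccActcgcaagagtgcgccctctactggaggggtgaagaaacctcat
H3f3a-ps2: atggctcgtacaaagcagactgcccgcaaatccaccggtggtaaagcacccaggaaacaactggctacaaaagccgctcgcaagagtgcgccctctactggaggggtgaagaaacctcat

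In these 120 bases *H3f3b* differed from *H3f3a* at 24 positions, *H3f3c* at 2 and *H3f3a-ps2* at 0. Over the whole coding sequence the identity with *H3f3a* was 76.9% for *H3f3b*, 99% for *H3f3c* and 98.8% for *H3f3a-ps2*. The longest run of identical bases was 23 between *H3f3a* and *H3f3b*, shorter than a read of 100 bases, and 267 between *H3f3a* and *H3f3c*. Of all 100-base stretches of the annotated transcripts, 20.8% of those of *H3f3a* also occurred in transcripts of another gene (14.5% in the overlapping gene *Gm17275*, 4.47% in *H3f3c*, 2.66% in *H3f3a-ps2*), against 1.92% for *H3f3b* and 3.27% for *H1f0*. The count of *H3f3a* is therefore the least certain of the 3.

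The library totals were between 25320109 and 29105710 counts, and levels are given as CPM, the count scaled to a common library total, here the total after edgeR's TMM scaling. Over all genes, 17865 passed the filter on low counts, and their median log2 fold change (Log2FC, stress vs. control) was 0.0015. *Xist* and 4 genes of the Y chromosome were detected as the labelled sexes require (*Xist* 30879 to 35294 counts in females and 13 to 22 in males). The neuronal genes *Tubb3* and *Dcx* had mean levels of 1807 and 1428 CPM in the control brains, as the labelled tissue requires. No batch is named for these 8 libraries.

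*H1f0* (ENSMUSG00000096210.2) is a gene of 1 exon at chr15:79028450-79030504 on the plus strand of mm10, with 2055 exon bases, and its coding sequence of 585 bases encodes 194 residues. Its level was 229.7 CPM (F36) and 223.9 CPM (F37) in the control females and 232.1 CPM (M30) and 217.9 CPM (M31) in the control males. It was 305.6 CPM (F34) and 285.3 CPM (F35) in the stressed females and 318.9 CPM (M28) and 323.4 CPM (M29) in the stressed males. The groups did not overlap, and both stressed males stood above both stressed females. The mean was 225.9 ± 6.34 CPM (SD, n = 4) without and 308.3 ± 17.1 CPM (SD, n = 4) with stress, a Log2FC of 0.45 (SE 0.03), or 36.4% higher. These values rest on 6200 to 9362 counts per library, for which counting alone gives an error of 1.03% to 1.27%.

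*H3f3b* (ENSMUSG00000016559.14), the more abundant H3.3 gene, lies at chr11:116021912-116027962 on the minus strand, and none of its 2976 exon bases is shared with an exon of another gene. Its level was 850.6 CPM (F36) and 866.8 CPM (F37) in the control females and 858.2 CPM (M30) and 860.5 CPM (M31) in the control males. It was 1050 CPM (F34) and 1039 CPM (F35) in the stressed females and 1105 CPM (M28) and 1128 CPM (M29) in the stressed males. The 4 control brains were close together, the groups did not overlap, and the order of the stressed brains was that of *H1f0*, M29, M28, F34 and F35 from high to low. The mean was 859.0 ± 6.72 CPM (SD, n = 4) against 1080 ± 42.9 CPM (SD, n = 4), a Log2FC of 0.33 (SE 0.03), or 25.7% higher in the stress group.

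*H3f3a* (ENSMUSG00000060743.12) lies at chr1:180800832-180813943 on the minus strand with 3504 exon bases. Its level was 373.8 CPM (F36) and 357.5 CPM (F37) in the control females and 355.8 CPM (M30) and 341.2 CPM (M31) in the control males. It was 370.5 CPM (F34) and 382 CPM (F35) in the stressed females and 388.5 CPM (M28) and 394.2 CPM (M29) in the stressed males. The groups overlapped, since control F36 stood above stress F34. The mean was 357.1 ± 13.4 CPM (SD, n = 4) against 383.8 ± 10.2 CPM (SD, n = 4), a Log2FC of 0.10 (SE 0.03), or 7.5% higher. The groups did not overlap, with the stress group higher, in 8.2% of all genes tested and in *H1f0* and *H3f3b* among these 3, and nothing is read from that count because the genes were chosen with this contrast known.

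**Figure D1:**
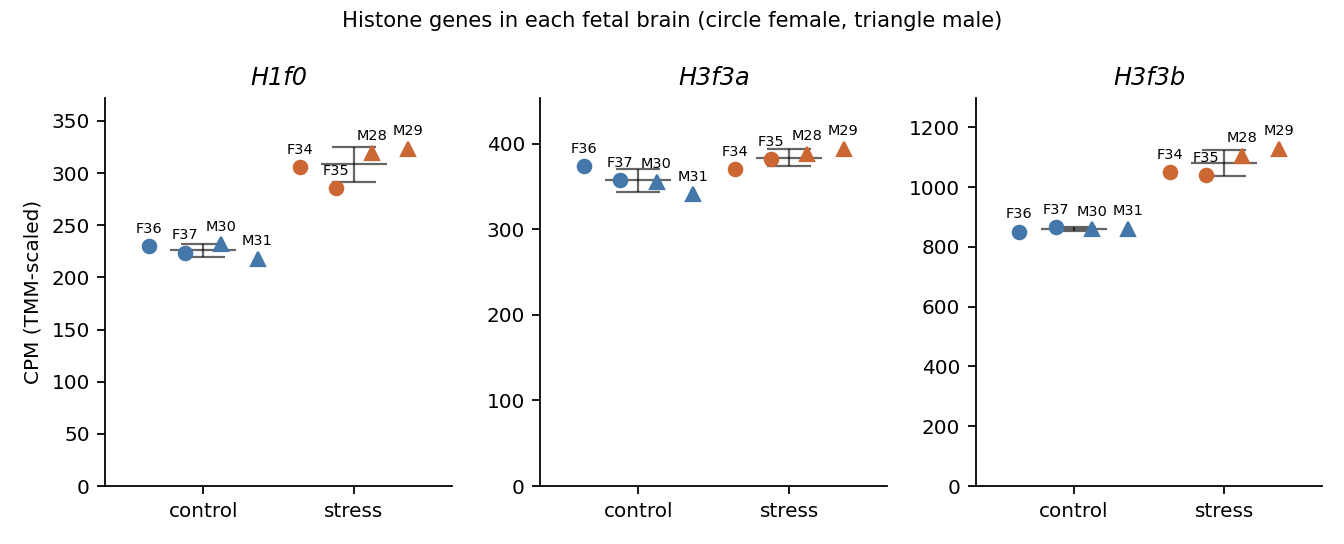
Level of *H1f0*, *H3f3a* and *H3f3b* in each brain, in CPM on a linear axis from 0, for 4 control and 4 stress brains (circles females, triangles males), with the mean and SD of each group in black. The stressed brains stand above all control brains in *H1f0* and *H3f3b*, and control F36 stands above stress F34 in *H3f3a*.

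By Log2FC, *H1f0* and *H3f3b* ranked 358 and 724 of the 17865 genes tested, and *H3f3a* 3686. The ranking by size changed with abundance. Of the 640 genes whose mean CPM over all 8 brains, stressed brains included, was at least that of *H1f0*, none had a larger Log2FC than *H1f0*. *H3f3b* was the third, and the gene between *H1f0* and *H3f3b* was *Rbm3* (0.35), a cold-inducible RNA-binding protein. *H3f3a* was at place 47 of these 640.

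The replicates of *H1f0* and *H3f3b* varied more in the stress group than in the control group. The coefficient of variation of *H3f3b* was 0.782% in the control brains and 3.97% in the stressed brains, beside medians of 1.996% and 2.81% over the 182 genes within 2-fold of its level. For *H1f0* it was 2.81% and 5.56%, beside medians of 2.25% and 2.78% over 1676 genes. *H3f3a* went the other way, with 3.74% and 2.66%. The spread of 4 brains is itself imprecise, and these differences in spread were not tested.

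Per kilobase of exon, *H3f3b* was the highest of the 3 in the control brains, at 288.6 ± 2.26 CPM per kb (SD, n = 4), followed by *H1f0* at 109.9 ± 3.08 and *H3f3a* at 101.9 ± 3.81. The order of the last 2 is uncertain, because with the exon bases that other genes cover left out of the length the control level was 119.4 CPM per kb for *H1f0* and 132.0 for *H3f3a*. In the stressed brains the levels were 363.0 ± 14.4 CPM per kb for *H3f3b*, 150 ± 8.33 for *H1f0* and 109.5 ± 2.91 for *H3f3a*, and without the covered bases *H1f0* again stood above *H3f3a*, at 162.9 against 141.8.

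The H3.3 genes together supplied 1216 ± 10.8 CPM (SD, n = 4, 1202 to 1224) without stress and 1464 ± 51.7 CPM (SD, n = 4, 1420 to 1522) with it. The share of their counts that came from *H3f3b* was 69.5% (F36) and 70.8% (F37) in the control females and 70.7% (M30) and 71.6% (M31) in the control males. It was 73.9% (F34) and 73.1% (F35) in the stressed females and 74.0% (M28) and 74.1% (M29) in the stressed males. The control share was below the stress share in every pair of brains, with means of 70.6 ± 0.883% and 73.8 ± 0.449% (SD, n = 4 each), so the paralog with the larger rise was also the more abundant one. Per kilobase of all exon bases the share was 73.9% for control and 76.8% for stressed brains. On that measure *H3f3b* was 2.84 times as high as *H3f3a* in control brains (2.68 to 2.97) and 3.31 times in stressed brains (3.202 to 3.37). These ratios were lower with the exon bases that other genes cover left out. The share was then 68.6% for control and 71.9% for stressed brains. The levels of *H3f3b* and *H3f3a* were then 288.6 and 132.0 CPM per kb in control brains and 363.0 and 141.8 in stressed brains.

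**Figure D2:**
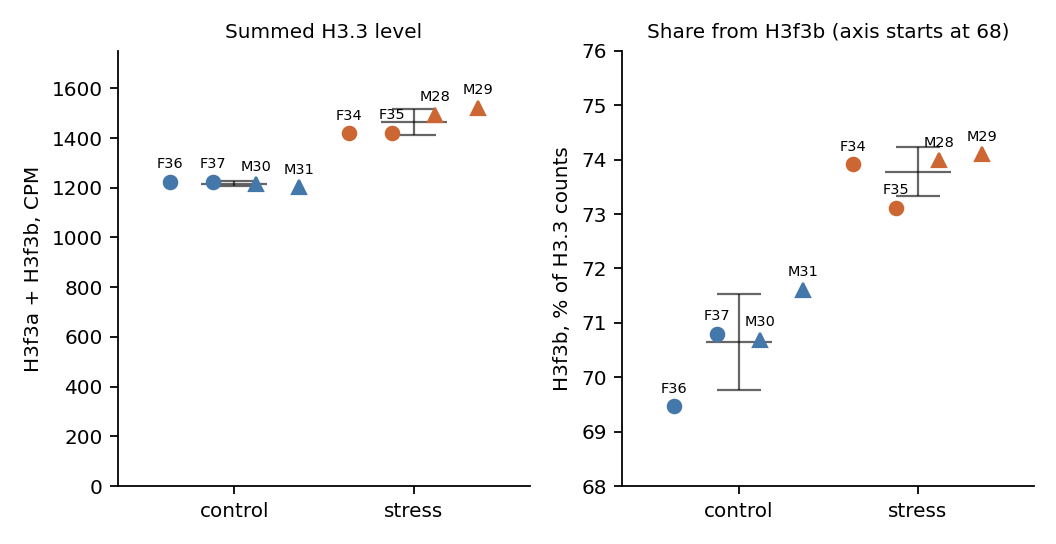
Left, summed CPM of *H3f3a* and *H3f3b* in each brain on an axis from 0, and right, the percent of their counts that came from *H3f3b* on an axis that starts at 68 (circles females, triangles males, mean and SD in black). In both panels the 4 stressed brains stand above the 4 control brains, with shares of 73.1% to 74.1% against 69.5% to 71.6%.

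Overlapping annotation touched *H3f3a* most, since 22.8% of its exon bases also lie in exons of genes on the opposite strand. *Gm17275* shares 638 of them (18.2%), in the last exon of *H3f3a*, and *H3f3aos*, an antisense gene at chr1:180813776-180816859, shares 160 (4.57%) at the other end. The counting set no option for strand, so reads of *H3f3a* and of its antisense genes cannot be told apart where they overlap. Both overlapping genes changed, in opposite directions. *H3f3aos* was at 62 to 75 counts in the control brains and 79 to 126 in the stressed brains, 2.45 ± 0.196 against 3.87 ± 0.6 CPM (SD, n = 4 each), and rose with a Log2FC of 0.66 (SE 0.13, edgeR quasi-likelihood test, Benjamini-Hochberg adjusted p = 0.000763). *Gm17275* was at 333 to 366 counts in the control brains and 278 to 311 in the stressed brains, and fell with a Log2FC of -0.24 (SE 0.07, edgeR adjusted p = 0.0174), a call lost without control M30 or stress M29 (Log2FC -0.20 each) and with DESeq2. Neither gene's groups overlapped in CPM. Summing *H3f3aos* with *H3f3a* before the fit gave a Log2FC of 0.11 (SE 0.03) for the sum. *H3f3a* itself had 9669 to 11412 counts, so the sum could differ little from *H3f3a* alone and says little about the overlap. *Gm17275* was not summed.

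**Figure D3:**
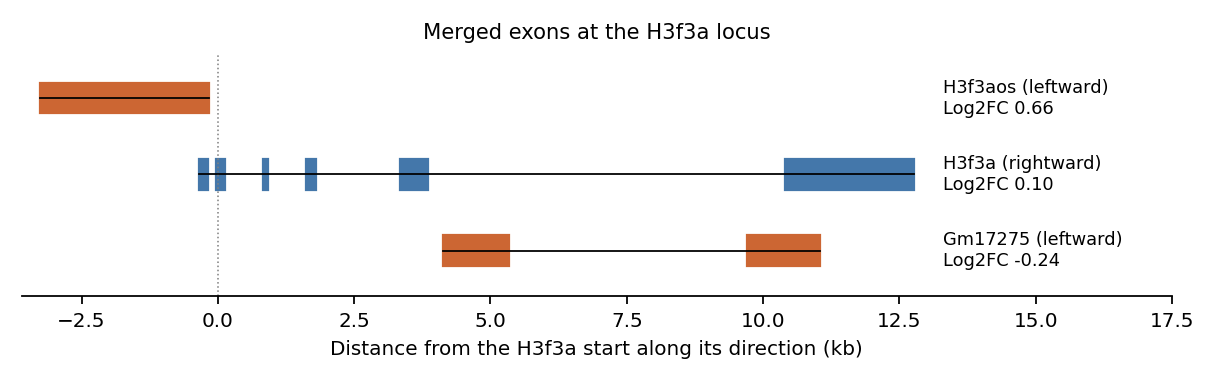
Merged exons (boxes) of *H3f3a*, of its antisense gene *H3f3aos* and of *Gm17275*, as distance in kb from the RefSeq start of *H3f3a* along its own direction, with the Log2FC (stress vs. control) of each gene. The exons of *H3f3aos* meet the first annotated exon of *H3f3a* and those of *Gm17275* its last, and the 3 genes had Log2FC values of 0.66, 0.10 and -0.24.

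The copies of *H3f3a* did not pass the test. *H3f3a-ps2* was at 104 to 135 counts, with a Log2FC of 0.04 (SE 0.11, edgeR adjusted p = 0.864), and *H3f3c* at 12 to 18 counts, with a Log2FC of -0.01 (SE 0.27, edgeR adjusted p = 0.991). *H3f3a-ps1* had 0 to 2 counts and was not tested. By default the counting tool leaves out read pairs with several places, so these counts and that of *H3f3a* miss whatever fell on shared stretches. *Gm49544*, antisense to *H1f0* over 163 (7.93%) of its exon bases, had 2 to 11 counts and was not tested either.

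Sex, which played no part in the choice of the genes, was balanced over the groups and could be tested. With condition in the model, males were higher than females by a log2 difference of 0.06 (SE 0.03) in *H1f0* and 0.05 (SE 0.03) in *H3f3b*, and *H3f3a* differed by -0.01 (SE 0.03). None of the 3 passed the edgeR test, with adjusted p = 0.872 for *H1f0*, 0.861 for *H3f3b* and 0.987 for *H3f3a*, where 16 of all genes tested (0.0896%) were called, 10 of them lower in males. At an unadjusted p under 0.05 the same fit gave 1055 genes (5.91%), none of them one of these 3, and DESeq2 called 15.

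The stress vs. control difference was larger in males than in females in all 3 genes. *H1f0* had a Log2FC of 0.38 (SE 0.04) in the 2 against 2 females and 0.51 (SE 0.04) in the 2 against 2 males. *H3f3b* had 0.28 (SE 0.04) and 0.38 (SE 0.03). *H3f3a* had 0.04 (SE 0.04) in females, where its means were 365.7 and 376.2 CPM, and 0.17 (SE 0.04) in males, where they were 348.5 and 391.4 CPM. The difference between the sexes was tested as an interaction over all 8 brains. It was 0.13 (SE 0.06) in *H1f0*, 0.13 (SE 0.05) in *H3f3a* and 0.10 (SE 0.05) in *H3f3b*, and none passed the adjustment over all genes (edgeR adjusted p = 0.718, 0.691 and 0.779). Before adjustment all 3 were under 0.05, as were 6.31% of all genes tested, 3.33% with the larger rise or smaller fall in males. After adjustment edgeR called 1 gene for the interaction (0.0056%), *Stambp*, a gene outside the lists that is named because it was the only one, and DESeq2 called 2.

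**Figure D4:**
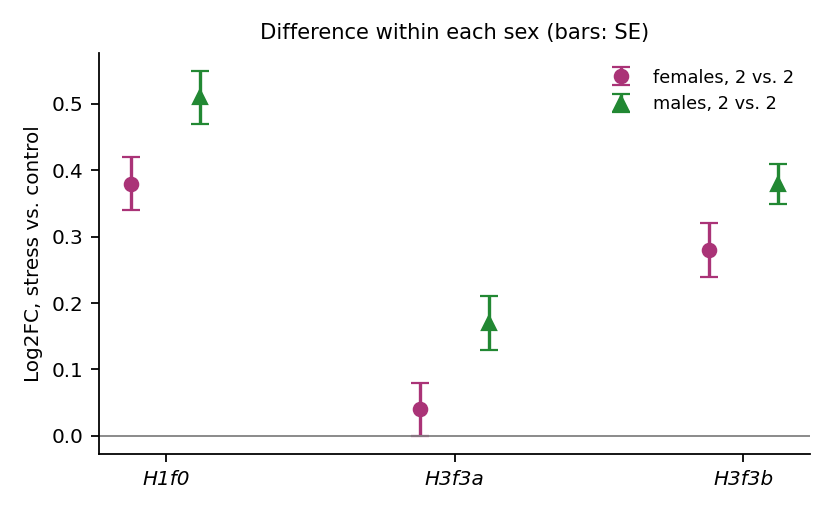
Log2FC (stress vs. control) of each gene in 2 against 2 females (circles) and 2 against 2 males (triangles), with the SE as bars. The values for males are above those for females in all 3 genes, 0.51 against 0.38 in *H1f0*, 0.17 against 0.04 in *H3f3a* and 0.38 against 0.28 in *H3f3b*, and the interaction passed the adjustment in none.

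*H1f0* was the main source of linker histone mRNA in these poly(A) libraries. It gave 70.2% to 70.8% of the counts per kilobase of 11 linker histone genes in the control brains and 74.3% to 76.6% in the stressed brains. *H1fx*, another polyadenylated linker histone gene, had mean levels of 52.4 CPM (control) and 54.0 CPM (stress), a Log2FC of 0.05 (SE 0.04, edgeR adjusted p = 0.565). *Hist1h1c*, a linker histone gene of the replication-dependent cluster, was at 105 to 209 counts and rose from 4.58 to 6.27 CPM, a Log2FC of 0.45 (SE 0.11, edgeR adjusted p = 0.00579) that rounds to the same value as that of *H1f0* with a larger error. The other 8 linker histone genes had 0 to 9 counts in each library and were not tested. Their mRNAs end without a poly(A) tail or belong to germ cells, so a low count here says little about their level in the tissue.

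The other histone and chromatin genes were taken as 8 lists of 57 genes, of which 49 were tested, 21 rose and 1 fell. The 21 are 42.9% of those tested, beside 6.49% of all genes tested that rose and 7.27% that fell. The lists were chosen with earlier results of these data known, so these shares are a description and no enrichment is read from them. The median Log2FC of the 49 genes was 0.10, beside 0.0015 over all genes. Only *Hist1h1c* had a Log2FC above that of *H3f3b*, whereas 24 of the 49 were above *H3f3a*. Leaving out stress M29 reduced the 21 genes to 13. All 7 markers of proliferating cells rose as well (summed level 576.3 to 617.2 CPM in control and 642.4 to 734.2 CPM in stressed brains), and their part in the counts of these lists was not tested.

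Of the 10 tested genes for H3.3 deposition, 3 rose and 0 fell, and the count of 3 was 0 without stress M29, at most 2 in the fits without 1 brain and 1 with DESeq2. They were *Asf1a*, a chaperone that hands H3 and H4 on (Log2FC 0.20, SE 0.05, edgeR adjusted p = 0.00789, with 48.0% of its exon bases under another gene, and a Log2FC of 0.17 and no call without stress M29), *Dek* (Log2FC 0.11, adjusted p = 0.0335) and the remodeller *Chd1* (Log2FC 0.11, adjusted p = 0.0378). *Dek* lost its call in 5 of the 8 fits that left out 1 brain and *Chd1* in 7, and neither was called by DESeq2. The other 7, which include the H3.3 chaperones themselves, did not pass the test. *Hira* and its partners *Ubn1*, *Ubn2* and *Cabin1*, which deposit H3.3 at active genes, had Log2FC values of 0.02, 0.08, 0.03 and 0.03, and the remodeller *Chd2* 0.04. *Daxx* and *Atrx*, which deposit it at repeats, had values of 0.01 and 0.02 (SE 0.05 and 0.03), at control levels of 44.5 and 424.9 CPM. Of 5 chaperones of replication-coupled H3, 1 rose, *Chaf1b* of the CAF-1 complex (Log2FC 0.23, SE 0.06, edgeR adjusted p = 0.0129), which lost its call without stress F34 or stress M29.

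Among 7 other histone variants made outside S phase or in place of a core histone, 3 rose and 0 fell. *Cenpa*, the H3 variant of centromeres, rose from 29.8 to 36.6 CPM (Log2FC 0.30, SE 0.04, edgeR adjusted p = 3.9e-05), close to the Log2FC of *H3f3b*. *H2afx* and *H2afv* rose with Log2FC values of 0.13 and 0.11 (edgeR adjusted p = 0.0402 and 0.0321), and each lost its call in 5 of 8 fits without 1 brain. Neither was called by DESeq2, and *H2afx* was not called with no sex term. The count of 3 was 1 with DESeq2 and 1 to 4 in the fits without 1 brain. *H2afz*, like *H3f3b* an abundant polyadenylated variant, was at 270.1 and 285.7 CPM, a Log2FC of 0.08 (edgeR adjusted p = 0.106).

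Of 5 linker histone chaperones, 4 rose (2 without stress M29), *Npm1*, *Ptma*, *Set* and *Nap1l1*, with Log2FC values of 0.13, 0.12, 0.10 and 0.08, and *Set* lost its call without stress M29 and *Nap1l1* kept its call in 1 of 8 fits without 1 brain. Of 9 HMG proteins, 5 rose, *Hmgb2* (Log2FC 0.29, SE 0.04, edgeR adjusted p = 2.7e-05), *Hmgn2* (0.16), *Hmgb1* (0.15), *Hmgb3* (0.14) and *Hmgn1* (0.12), and each of these 5 kept its call in all 8 such fits. *Aurkb*, 1 of 3 genes that read or phosphorylate the serine particular to H3.3, rose with a Log2FC of 0.26 (edgeR adjusted p = 0.000855), and the other 2, *Zmynd11* and *Chek1*, were at -0.06 and 0.17 and did not pass.

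Genes of cell cycle exit, the setting in which H1.0 is known to accumulate, went both ways. Of 8 tested, 3 rose, the inhibitor *Cdkn1c* (Log2FC 0.20) and the pocket protein genes *Rbl1* (0.20) and *Rb1* (0.18), and 1 fell, the p53 target *Cdkn1a* (Log2FC -0.34, SE 0.05, edgeR adjusted p = 5.9e-05). *Cdkn1b*, the gene of the inhibitor p27, was at 153.7 and 155.0 CPM (Log2FC 0.01, edgeR adjusted p = 0.832). The pocket protein gene *Rbl2* had a Log2FC of 0.02 (SE 0.04, edgeR adjusted p = 0.813). *Cdkn2c* and *Cdkn2d* were at 0.09 and -0.06 and did not pass either.

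**Figure D5:**
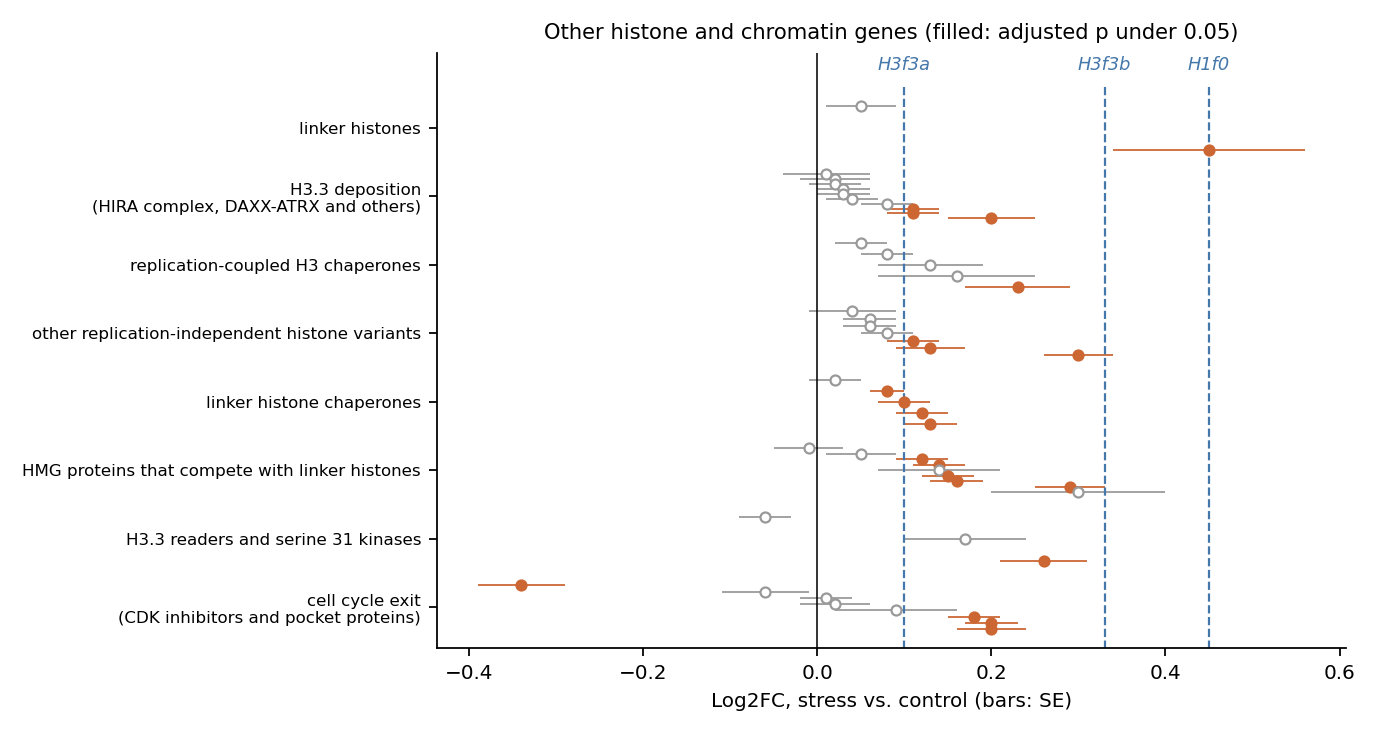
Log2FC (stress vs. control, x axis) with SE of the 49 tested genes of 8 lists, 1 list per row, filled where the edgeR adjusted p was under 0.05, with dashed lines at the values of *H3f3a* (0.10), *H3f3b* (0.33) and *H1f0* (0.45). Most genes lie between 0 and 0.30, *Cdkn1a* is the filled point at -0.34, and *Hist1h1c* is the filled point at 0.45.

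Markers of cell types moved with the groups in part, and in whole brain a change in the number of cells of a type and a change in RNA per cell cannot be told apart. The 7 markers of proliferating cells all rose. Among the stressed brains their summed level had the order M29, M28, F34 and F35, as in *H1f0* and *H3f3b*. The sum of the neuronal progenitor markers had the same order, and that of radial glia had M28, M29, F34 and F35. Among the control brains the order was M30, M31, F36 and F37 for proliferating cells and radial glia. For neuronal progenitors it was M30, F36, M31 and F37. Neither was the order of *H1f0* (M30, F36, F37, M31) or of *H3f3b* (F37, M31, M30, F36). Of 5 markers of neuronal progenitors 3 rose (266.7 to 285.3 CPM against 293.3 to 324.9 CPM), and of 8 of radial glia 4 rose (1529 to 1623 CPM against 1559 to 1686 CPM). Of 6 neuronal markers 3 fell, with sums of 6103 to 6332 CPM against 6026 to 6282 CPM. Of 4 endothelial markers 2 fell (114.1 to 125.4 CPM against 102.5 to 111.9 CPM), and of 4 of microglia none passed the test at an adjusted p (21.9 to 24.5 CPM against 21.2 to 23.7 CPM). Of 6 erythroid markers 1 rose and 1 fell (361.9 to 408.8 CPM against 366.3 to 380.3 CPM). *Hbb-y* rose from 3.36 to 6.0 CPM (Log2FC 0.84, SE 0.13, edgeR adjusted p = 0.00012), a change that the sum hardly shows. *Hbb-bs* fell from 150.5 to 136.3 CPM (Log2FC -0.14, SE 0.04, edgeR adjusted p = 0.00976). Of 3 tested markers of meninges 2 rose, *Col1a1* and *Col1a2*, with sums of 7.58 to 16.8 CPM against 10.3 to 37.7 CPM and the highest in stress M28. *Col1a1* had a Log2FC of 1.59 with all brains and 0.84 without stress M28, and *Col1a2* 0.79 and 0.37, neither called then nor with DESeq2, and *Lum* did not pass the filter on low counts. None of the tested markers was at 0 in a whole group. The part of these cell types in the levels of *H1f0* and *H3f3b* was not tested. Without stress M28 the Log2FC was 0.44 for *H1f0* and 0.33 for *H3f3b*.

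The genes whose log2 CPM ran most like each histone gene over the 8 brains were ranked by Pearson's r among 17864 genes, as a description, since all these brains share the group difference. For *H1f0* they were *Ttf2* (r = 0.996), *Rrm2* (0.991), *Eomes* (0.990), *Zfp41* (0.989) and *Twsg1* (0.989). For *H3f3b* they were *Polr2b* (r = 0.991), *Tdg* (0.990), *Ttk* (0.990), *Rbm12* (0.989) and *H1f0* (0.987). For *H3f3a* they were *Orc6* (r = 0.974), *Eif5a* (0.972), *Tmem98* (0.965), *Bnip2* (0.964) and *Gm10544* (0.963). With the values centred within group and sex, none of the 5 genes of any list stayed among the first 5. The centred r was 0.83 to 0.99 for the 5 genes of *H1f0* and 0.84 to 0.99 for those of *H3f3a*. For the 5 genes of *H3f3b* it was 0.12 to 0.43. Centring lowered r from 0.987 to 0.12 between *H1f0* and *H3f3b* and from 0.821 to -0.47 between *H3f3a* and *H3f3b*. Each group and sex held only 2 brains, so a centred r rests on few independent values. The listed genes were also picked by r over the same 8 brains, which favours a high centred r. Nothing is read from the centred values.

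Apart from *H3f3aos* and *Gm17275*, which overlap *H3f3a* and are given with it, the 2 nearest tested genes on each side of each histone gene were compared. Of these 12 genes that do not overlap *H1f0*, *H3f3a* or *H3f3b*, 0 rose and 2 fell. Over all genes tested 6.49% rose and 7.27% fell, and nothing is read from so small a count. *Triobp*, which ends 22581 bases from *H1f0*, fell with a Log2FC of -0.15 (SE 0.03, edgeR adjusted p = 0.00292), and *Gcat*, which starts 370 bases past *H1f0*, was at 1.605 and 1.83 CPM (Log2FC 0.19, SE 0.17, edgeR adjusted p = 0.526). *Lefty2*, 79165 bases from *H3f3a*, fell from 1.85 to 1.27 CPM (Log2FC -0.53, SE 0.17, edgeR adjusted p = 0.0413), a call that was lost in 6 of 8 fits without 1 brain. Beside *H3f3b*, *Unk* was at a Log2FC of 0.08 and *Galk1* at -0.08, and neither passed.

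The 250 bases before the RefSeq start (GRCm38.p6) differed in composition between the 3 genes. The window of *H3f3a* (chr1:180813606-180813855, minus strand) had 77.2% G and C and 35 CpG, that of *H1f0* (chr15:79027962-79028211, plus strand) 74.4% and 24 CpG, and that of *H3f3b* (chr11:116024505-116024754, minus strand) 54% and 19 CpG, beside medians of 52.4% and 6 CpG over 32851 such windows of 27025 genes. Motifs were searched on both strands. *H3f3b* held 4 matches of CCAAT, where 0.84% of windows held 4 or more, and 1 match of TATAAA, a motif found in 12.4% of windows. *H3f3a* held 1 match of CCAAT (33.8% of windows hold it), 4 of GGGCGG (32.7%) and 1 of AAACACA (6.25%). *H1f0* held none of these 4 motifs, and none of the 3 windows held TTTGAA (16% of windows) or the E2F words TTTCGCGC and TTTGGCGC (0.654%). The matches of *H3f3b* are shown with 8 bases on each side and the motif in capitals, 5′ to 3′ along the gene, because they set its start apart from those of the other 2 genes.
H3f3b CCAAT box 1: gcatccagCCAATcctgaagc
H3f3b CCAAT box 2: tgtaacagCCAATcagtggcc
H3f3b CCAAT box 3: aacaccggCCAATcaggaaac
H3f3b CCAAT box 4: agctcccgCCAATcgaaaaag
H3f3b TATA box 1: agcgtctcTATAAAtatggagg

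The CCAAT matches begin 214, 190, 167 and 97 bases before the RefSeq start of *H3f3b*, and the TATAAA match begins 27 bases before it. A match is a description of these letters and not a binding site. In GENCODE, 214 of the 250 bases of this window also lie in annotated exons of *H3f3b*. In the window of *H3f3a*, 99 of the 250 bases lie in exons of *H3f3a*. The GENCODE start of *H1f0* lies downstream of the RefSeq start, so its window does not cover the bases just before the former.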

How the data were processed

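RNA of 8 E15.5 mouse brains, 4 stress and 4 control, was analysed from 1 count table per brain, with groups, sexes and replicate names from the sample titles. Per the submitters' processing notes and the study's methods, the authors trimmed paired reads with Trim Galore, aligned them to mm10 with TopHat2 2.1.1 and counted pairs on exons with featureCounts 1.6.3 and GENCODE. The deposited values are raw counts per gene, beside the exon length used for levels per kilobase. Of 54752 identifiers 54723 were matched to a symbol.

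Genes were kept by filterByExpr (minimum count 10), scaled by TMM and tested with the quasi-likelihood test of edgeR 4.0.16 in R 4.3.3 (with limma 3.58.1). The model held condition and sex, with Benjamini-Hochberg adjustment over 17865 genes. A call is an adjusted p under 0.05. The SE is the Log2FC divided by the square root of F. The study's own model also held batch, and no batch is named for these libraries. DESeq2 1.42.0, other scalings, no filter, no sex term and each brain left out were the alternatives. The fit was tested on simulated data.

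The 3 genes, the lists of chromatin genes and markers and the rules for the genes named (list genes, copies, 5 genes most alike by log2 CPM with a prior count of 2, and 2 neighbours on each side) were chosen with earlier results of these data known. Sequences were read from GENCODE M21 and RefSeq. The p-values measure the spread between brains of 1 litter per group. The other animals of the study were not analysed here.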

Additional observations from a re-analysis of the deposited data

How the results depend on the processing

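The Log2FC of *H1f0* lay between 0.44 and 0.45, that of *H3f3a* at 0.10 and that of *H3f3b* between 0.32 and 0.33 with DESeq2, median-of-ratios factors, upper-quartile factors, no filter and no sex term, and without 1 brain each they ranged from 0.42 to 0.48, 0.08 to 0.13 and 0.31 to 0.34. In females alone they were 0.38, 0.04 and 0.28, and in males alone 0.51, 0.17 and 0.38. Over all genes, 1160 rose and 1298 fell. DESeq2 gave 748 higher, and without 1 brain each 736 to 1057 rose and 854 to 1308 fell, with the lowest counts without stress M29. The rising genes of the chromatin lists numbered 13 to 21 without 1 brain (13 without stress M29), and 14 of the 22 called genes were called in all 8 such fits. The sex difference of *H3f3a* changed sign (0.02 without control F36 or control M31, range -0.03 to 0.02), and that of *H1f0* ranged from 0.02 to 0.09 and that of *H3f3b* from 0.03 to 0.06. Between the sexes 5 to 8 genes were higher and 5 to 15 lower in males without 1 brain, and 23 and 41 with no filter. The interaction was called positive in 0 to 5 and negative in 0 to 4 genes without 1 brain, in 21 and 16 with no filter, and positive in 2 with DESeq2. In *H1f0*, *H3f3a* and *H3f3b* it ranged from 0.09 to 0.18, 0.10 to 0.16 and 0.08 to 0.11. Among the linker histone genes and the copies of *H3f3a* refitted without 1 brain, sign changes occurred in the uncalled *H3f3c* (-0.11 to 0.11), *H3f3a-ps2* (-0.03 to 0.11) and *H1fx* (lowest -0.0014), and most other uncalled list genes were not followed without 1 brain. The cause of these changes was not tested. No paired analysis was possible because the labels give the groups no shared replicate numbers. Intervals from counting cover counting error only, and genes under about 10 counts per library could not be tested.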
